A study of Mus musculus with 5 samples.

Results

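The 8 genes described here are Smad2, Smad3, Smad4, Smad7, Skil, Pmepa1, Tgfbi and Tgif1: signal-carrying SMADs, and direct transcriptional responses to them. They were chosen by name and role. All 8 were among the 12579 genes measured in every library. Droplet single-cell RNA sequencing, with transcripts counted from their 3′ ends by unique molecular identifiers (UMIs), was applied to advanced pancreatic tumours of mice 7 to 8 weeks old. Dead cells and CD45+ haematopoietic cells had been depleted. KPPC mice, as the study's field uses the name, lose Trp53 in cells of the Pdx1-Cre lineage, from which their pancreatic carcinomas arise. KPPCN mice share the alleles of KPPC mice and also lose Nsdhl, a sterol dehydrogenase of late cholesterol synthesis, in that lineage. Stromal cells lie outside the lineage. Libraries of 3 KPPC tumours (C3, D3 and H2) and 2 KPPCN tumours (1 and 2) were analysed. The study asked how blocking the cholesterol pathway bears on TGFβ signalling in pancreatic cancer.

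TGFβ and activin ligands bring together serine/threonine kinase receptors, which phosphorylate SMAD2 and SMAD3. These receptor SMADs join the shared partner SMAD4, enter the nucleus and bind DNA with other factors. The pathway also switches on its own brakes. SMAD7 blocks the receptors and recruits ubiquitin ligases to them. SKIL, also called SnoN, represses SMAD complexes on DNA. PMEPA1 is a membrane protein that holds receptor SMADs away from the receptor. TGIF1 is a homeodomain co-repressor of SMAD2. TGFBI is a secreted matrix protein whose transcription rises under TGFβ. In pancreatic carcinoma the pathway is known both for restraining growth of epithelial cells and for driving mesenchymal change and matrix deposition. RNA levels of SMAD genes do not measure SMAD phosphorylation.

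Over the 5 populations found in all 5 libraries, Tgif1 and Tgfbi differed most of the response genes, so their promoters are shown. Each runs from 250 bases before the annotated start to 50 after it, 5′ to 3′ along the gene's strand, from RefSeq on GRCm38.p6. Capitals mark CAGACA, a short form of the SMAD binding element. Of the 5 Tgif1 windows in the table, the one with the most upstream start is shown. The Tgif1 window is chr17:70853483-70853782 on the minus strand and the Tgfbi window is chr13:56609336-56609635 on the plus strand.
Tgif1 promoter: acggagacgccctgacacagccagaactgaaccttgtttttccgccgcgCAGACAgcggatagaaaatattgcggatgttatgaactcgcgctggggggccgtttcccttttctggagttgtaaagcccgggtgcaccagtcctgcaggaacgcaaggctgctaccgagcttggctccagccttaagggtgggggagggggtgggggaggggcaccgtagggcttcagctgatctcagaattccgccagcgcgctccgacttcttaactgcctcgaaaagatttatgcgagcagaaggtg
Tgfbi promoter: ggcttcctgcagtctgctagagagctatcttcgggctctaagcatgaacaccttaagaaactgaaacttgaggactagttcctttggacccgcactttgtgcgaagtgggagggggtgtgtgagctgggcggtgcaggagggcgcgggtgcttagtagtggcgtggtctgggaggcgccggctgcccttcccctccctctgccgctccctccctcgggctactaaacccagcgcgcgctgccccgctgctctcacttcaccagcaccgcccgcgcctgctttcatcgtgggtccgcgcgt
CAGACA or its reverse complement occurred 1 time in this Tgif1 window. It occurred in 2 of the 5 Tgif1 windows. The Tgfbi window held it 0 times. Of 32544 distinct promoters of this length, 20.9% held this motif on either strand. The palindrome GTCTAGAC was found in 0.215% of them and TGANTCA, the AP-1 site, in 7.79%. Neither lay in any of the 5 Tgif1 windows or in the Tgfbi window. A match of letters is a description of the window and not a binding site. Smad3 also had a window in the table, chr9:63757945-63758244 on the minus strand, with none of the 3 motifs.

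On GRCm38, Tgif1 spans chr17:70844205-70853546 on the minus strand and Tgfbi spans chr13:56609523-56639562 on the plus strand. Smad3 lies at chr9:63646767-63757994 (minus), Skil at chr3:31095058-31122577 (plus) and Pmepa1 at chr2:173224458-173276533 (minus). UMIs are read from the 3′ end of these genes and were assigned to genes by the authors.

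After filtering, 16911 cells were used, with 2010 to 5371 per library. KPPCN 1 stood apart: its cells held a median of 2187 UMIs, against 17345 to 21718.5 in the other 4 libraries. B/plasma-like and T/NK-like cells made up 20.1% and 25.2% of KPPCN 1, despite the CD45 depletion, and at most 1.11% of any other library. Any 2 libraries shared at most 6 cell barcodes. Of 26 clusters, 15 were named from marker genes. KPPC epithelial-like cells numbered 623, 978 and 724 in C3, D3 and H2, and KPPCN ones 96 and 38 in KPPCN 1 and 2. Another population comprised 4 unnamed clusters in which both Cdkn2a and Hmga2 were among the 10 leading genes. These Cdkn2a/Hmga2 clusters held 508, 150, 74, 304 and 1457 cells in the same order, so they made up 72.5% of KPPCN 2. CPM is each count scaled to a fixed total of UMIs per library and class. Their 10 epithelial markers summed to 1254 to 7091 CPM, against 18698 to 23347 CPM in epithelial-like cells. Epcam, 1 of these 10 markers, was at 1.46, 39.1, 6.64 and 4.54 CPM in clusters 9, 10, 11 and 16. It was at 15.8 CPM in the fibroblast-like cluster 0. Krt18, another of the 10, went the other way, at 484, 2448, 1599 and 1254 CPM against 75.4 CPM in cluster 0. In the epithelial-like clusters 3 and 6 Krt18 was at 6291 and 4310 CPM. Vim, a mesenchymal marker, was at 4011, 3621, 3825 and 4242 CPM in these 4 clusters. Nsdhl, the targeted gene, was at 29.5, 23.2 and 27.5 CPM in epithelial-like cells of C3, D3 and H2. It was at 31.8 and 34.6 CPM in those of KPPCN 1 and 2 (31 and 23 UMIs). In the Cdkn2a/Hmga2 clusters it was at 12, 10.9 and 9.78 CPM in KPPC, against 18.6 and 11.8 CPM in KPPCN. Nsdhl was thus not lower in KPPCN in either population. In fibroblast-like cells it was at 8.84, 18.0 and 9.16 CPM in KPPC against 5.93 and 8.08 CPM in KPPCN, and over all cells at 15.2, 18.1 and 16.8 CPM against 13.6 and 11.6 CPM, both wholly lower. The part of Nsdhl that was removed is not given in the sources used here. Counts from the 3′ end can still record a transcript that lacks an internal part, so this level checks nothing about the genotype labels, which were taken as given.

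Smad2, Smad3 and Smad4, the signal carriers, were highest or near highest in epithelial-like cells and the Cdkn2a/Hmga2 clusters. Levels below are CPM of the UMIs summed per library and class, as mean ± SD over the libraries with at least 20 cells of the class. The classes come from clustering the same cells, so differences between classes are described without a test. Smad2 averaged 35.9 ± 4.72 CPM in epithelial-like cells (n = 5), 31.7 ± 5.86 in the Cdkn2a/Hmga2 clusters and 31.2 ± 5.71 in endothelial-like cells. It averaged 16.7 ± 2.36 in fibroblast-like cells and 13.4 ± 2.08 in cluster 8, an unnamed cluster led by Serpinb2, Slpi and Ptgis. Smad2 in epithelial-like cells was between 31.6 and 43.6 CPM, above every fibroblast-like value. Smad3 was at 51.3 ± 10.6 CPM in the Cdkn2a/Hmga2 clusters and 50.6 ± 8.35 in epithelial-like cells, whose ranges overlapped. It was at 29.2 ± 3.29 CPM in fibroblast-like cells and 17.9 ± 2.45 CPM in endothelial-like cells. Smad4, the shared partner, varied least of the 3 over the 5 populations present in all 5 libraries. Its means there went from 54.3 ± 12.8 CPM in cluster 8 and 59.8 ± 4.29 in fibroblast-like cells to 69.9 ± 5.52 in epithelial-like cells. Classes found in fewer libraries spread wider. Smad4 was at 72.4 ± 12 CPM in pericyte-like, 38.9 ± 8.60 in acinar-like and 21.2 ± 19.4 in neutrophil-like cells, and at 2.28 CPM in erythroid-like cells. Over the 5 populations present in all 5 libraries, the highest mean was 2.68 times the lowest for Smad2, 1.93 times for Smad3 and 1.29 times for Smad4. In neutrophil-like cells of the 3 KPPC libraries Smad2 was at 0 UMIs. A count of 3 UMIs there would have been 38.0, 79.5 and 76.6 CPM in C3, D3 and H2, so low levels could go unseen.

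Smad7 and Skil, the inducible inhibitors, had similar means in epithelial-like cells, the Cdkn2a/Hmga2 clusters and fibroblast-like cells, with their highest levels elsewhere. Smad7 averaged 125 ± 14.2 CPM in epithelial-like cells, 135 ± 31.6 in the Cdkn2a/Hmga2 clusters and 153 ± 33.9 in fibroblast-like cells. These ranges overlapped. It reached 333, 308 and 284 CPM in C3, D3 and H2 in cluster 7, an unnamed cluster led by Cxcl13 and Saa3. In T/NK-like cells Smad7 was at 644 CPM in C3 (95% exact Poisson interval 507 to 807, from 75 UMIs) and 277 CPM in KPPCN 1 (258 to 298). These intervals cover counting error only. T/NK-like cells reached 20 cells in these libraries only. Skil was at 124 ± 32.4 CPM in epithelial-like cells, 116 ± 37.3 in the Cdkn2a/Hmga2 clusters and 139 ± 18.6 in fibroblast-like cells. Neutrophil-like cells held the highest Skil mean, 364 ± 139 CPM, from 31, 8 and 19 UMIs in C3, D3 and H2. The highest mean over the 5 populations was 1.25 times the lowest for Smad7 and 1.26 times for Skil.

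Pmepa1 had its highest mean in cluster 5, an unnamed cluster led by Cxcl14, H19 and Cilp, at 1390, 1325 and 1205 CPM in KPPC and 1743 and 1527 CPM in KPPCN. Pericyte-like cells followed, at 979, 944 and 1218 CPM in C3, D3 and H2. Pmepa1 averaged 853 ± 302 CPM in the Cdkn2a/Hmga2 clusters, 743 ± 117 in epithelial-like cells and 585 ± 84.9 in fibroblast-like cells. Endothelial-like cells were at 497 ± 131 CPM, mesothelial-like cells at 244 ± 61.7 CPM and the B/plasma-like cells of KPPCN 1 at 78.6 CPM.

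Tgif1 and Tgfbi had contrasting patterns across classes. Tgif1 was highest in epithelial-like cells, at 130, 207 and 142 CPM in C3, D3 and H2, against 67.7 and 161 CPM in KPPCN 1 and 2. It averaged 75.7 ± 17.6 CPM in the Cdkn2a/Hmga2 clusters, 23.0 ± 6.46 in fibroblast-like cells and 18.1 ± 4.04 in cluster 5. All 5 epithelial-like values of Tgif1 lay above all 5 fibroblast-like values. The highest of its means over the 5 populations was 7.83 times the lowest. Tgfbi had its highest mean in cluster 8, at 170, 197 and 161 CPM in KPPC and 302 and 170 CPM in KPPCN. In epithelial-like cells it was at 4.15, 3.77 and 1.40 CPM in C3, D3 and H2, against 3.08 and 1.5 CPM in KPPCN 1 and 2, where 3 and 1 UMIs were counted. In the Cdkn2a/Hmga2 clusters Tgfbi averaged 72.8 ± 19.9 CPM, above every epithelial-like value. Fibroblast-like cells varied among libraries, with Tgfbi at 22.2, 44.7, 7.17, 17 and 15.7 CPM. Tgfbi was the only member among the 2000 variable genes that the clusters were built on.

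**Figure D1:**
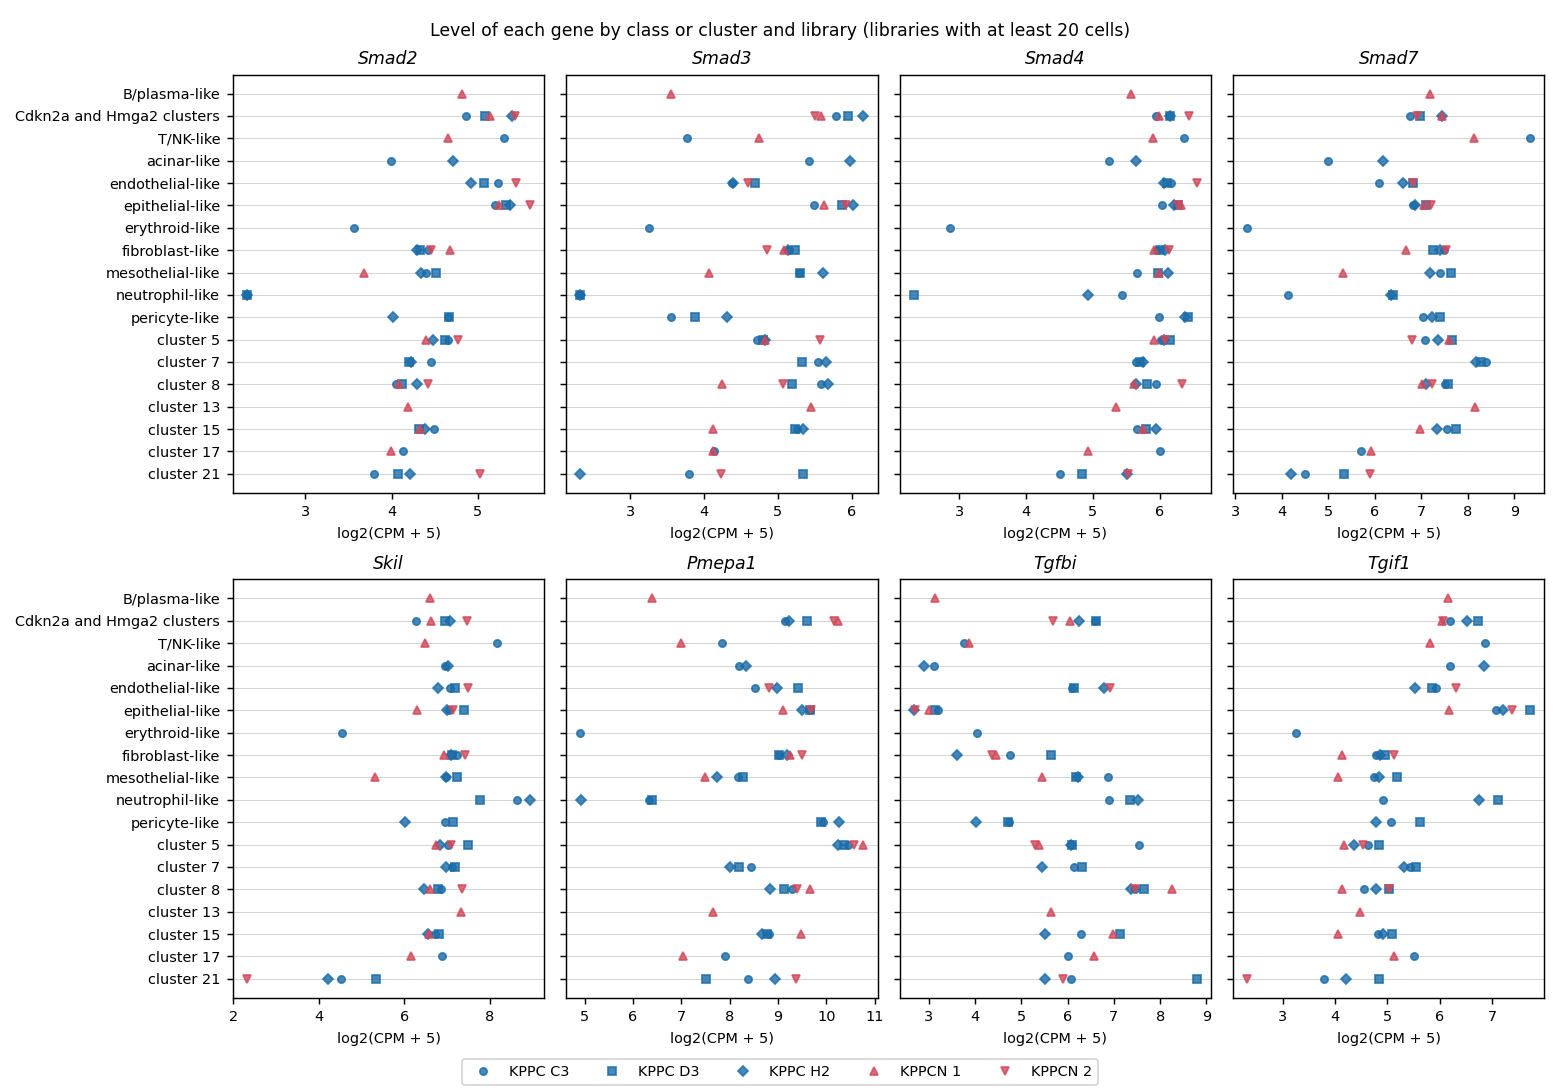
Levels of the 8 genes as log2(CPM + 5) by cell class or unnamed cluster, 1 panel per gene; each point is 1 library with at least 20 cells of the class, and marks distinguish libraries. Tgfbi had its lowest mean and Tgif1 its highest in epithelial-like cells, and Pmepa1 had its highest mean in cluster 5.

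The order of classes was loose. Among the 17 steps from one class mean to the next, in descending order over 18 classes and unnamed clusters, the ranges of both neighbours over libraries overlapped in 13 for Smad2, 14 for Smad3, 16 for Smad4 and 13 for Smad7. They overlapped in 16 for Skil, 15 for Pmepa1, 13 for Tgfbi and 17 for Tgif1. Neighbouring classes are therefore seldom told apart by these genes. Classes far apart in the order, such as epithelial-like and fibroblast-like cells for Tgif1, did not overlap.

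Shares of cells with a UMI were compared after thinning every cell to 1000 UMIs. Pmepa1 was found in 49.1 ± 13.3% of cells of the Cdkn2a/Hmga2 clusters (n = 5), 45.8 ± 7.98% of epithelial-like and 39.4 ± 5.78% of fibroblast-like cells. Unthinned, these shares were 88.8%, 90.1% and 90.3%. B/plasma-like cells of KPPCN 1, which are not known for Pmepa1, gave 7.59% (95% exact binomial interval 5.91% to 9.58%) at a median of 1159 UMIs. Tgfbi was found in 6.48% of thinned cells of the Cdkn2a/Hmga2 clusters, 2.47% of fibroblast-like cells and 0.44% of epithelial-like cells. The epithelial-like share was close to the 0.35% of the B/plasma-like cells (0.0723% to 1.02%) and is read as background. Tgif1 was found in 16.1 ± 5.47% of epithelial-like cells, 6.46% of the Cdkn2a/Hmga2 clusters and 2.82% of fibroblast-like cells. B/plasma-like cells gave 6.31% for Tgif1. They were at 66.6 CPM of this gene, above the 23.0 CPM mean of fibroblast-like cells, so they give no background for it. The share in the Cdkn2a/Hmga2 clusters is not told apart from theirs. Smad3 was found in 4.87% of the Cdkn2a/Hmga2 clusters, 4.63% of epithelial-like and 2.98% of fibroblast-like cells, against 0.47% of B/plasma-like cells. Smad7 was found in 9.94% to 14% of cells of the 3 populations and in 12.7% of B/plasma-like cells. Skil gave 10.2% to 12.6% against 8.64%, Smad4 4.98% to 5.69% against 4.09% and Smad2 1.67% to 4.27% against 2.34%, so no order is read from these genes' shares.

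KPPCN was compared with KPPC within each population on UMIs summed per library. Values below are CPM after trimmed-mean scaling. Differences are KPPCN minus KPPC of log2(CPM + 5) ± SE from limma, with p adjusted by the Benjamini-Hochberg method over all genes tested and a threshold of 0.05. With 3 and 2 libraries the p-values measure the spread between single tumours. In summed counts, fewer cells of a subtype and less RNA per cell cannot be told apart.

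Pmepa1 differed most of the 8 genes in the Cdkn2a/Hmga2 clusters, without passing the test. It was at 603, 753 and 565 CPM in C3, D3 and H2, against 1229 and 1111 CPM in KPPCN 1 and 2. Neither KPPCN value fell within the KPPC range, and both were above it. The log2 difference was 0.87 ± 0.21 (95% interval 0.38 to 1.37), a 1.83-fold ratio, with an adjusted p of 0.718. Smad3 was at 54.3, 55.3 and 63.2 CPM in KPPC and 43.6 and 39.6 CPM in KPPCN, a difference of −0.42 ± 0.19 (adjusted p = 0.730). Tgfbi was at 99.4, 90.5 and 67.6 CPM in KPPC and 62.3 and 45.9 CPM in KPPCN (−0.64 ± 0.24, adjusted p = 0.730). Tgif1 was at 73.8, 98.6 and 82.5 CPM in KPPC and 62.1 and 60.3 CPM in KPPCN (−0.43 ± 0.20, adjusted p = 0.730). For these 3 genes both KPPCN values lay below all KPPC values. The remaining signal carriers overlapped between genotypes. Smad2 was at 26.0, 28.3 and 35.3 CPM against 30.7 and 37.3 CPM, a difference of 0.19 ± 0.21. Smad4 was at 61.3, 64.4 and 62.6 CPM against 59.4 and 80.3 CPM (0.14 ± 0.20). The inhibitors overlapped too. Smad7 was at 111, 117 and 161 CPM in KPPC against 172 and 112 CPM in KPPCN (0.12 ± 0.27), and Skil at 77.5, 115 and 123 CPM against 95.2 and 167 CPM (0.30 ± 0.31).

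Among the 8 genes, 1 lay wholly above in KPPCN, beside 12.4% of the 11436 genes tested in the Cdkn2a/Hmga2 clusters, and 3 lay wholly below, beside 9.36%. The median difference over the 8 was 0.13, against 0.03 over all genes. At an adjusted p under 0.05, 0% of genes were called by limma, whose lowest adjusted p was 0.142, and 768 genes had an unadjusted p under 0.05. Without KPPCN 1 the fit called 116 genes, and the Pmepa1 difference was 0.80 with an adjusted p of 0.146. Of 52 leukocyte markers, 14 were listed in both tables. Their levels in these clusters summed to 106, 47.8 and 16.3 CPM in C3, D3 and H2 and to 728 and 103 CPM in KPPCN 1 and 2, with 1, 5 and 10 of the 14 at 0 in KPPC and 0 in KPPCN. Epithelial markers summed to 1254 CPM in KPPCN 2 and to 4692 to 7091 CPM in the other 4 libraries. The part of either in these differences was not tested.

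The 4 clusters held different libraries, and Pmepa1 was therefore also read cluster by cluster. In cluster 10, which held most KPPC and KPPCN 1 cells of the population, Pmepa1 was at 627, 862 and 640 CPM in C3, D3 and H2, against 1199 CPM in KPPCN 1. Cluster 16 held 43, 22 and 6 KPPC cells, with Pmepa1 at 428, 528 and 430 CPM, and 24 and 329 KPPCN cells, with 1354 and 1101 CPM. Cluster 9 held mainly KPPCN cells, 7 of KPPCN 1 and 815 of KPPCN 2, at 817 and 1199 CPM. For Pmepa1 in clusters 10 and 16, KPPCN values were above every KPPC value, in cluster 10 with KPPCN 1 alone, since KPPCN 2 had fewer than 5 cells there. Smad3, Tgif1 and Tgfbi were lower in KPPCN 1 than in every KPPC library in cluster 10, but overlapped in cluster 16. In cluster 16 Smad3 was at 37.7, 30.6 and 46.3 CPM in KPPC against 23.3 and 32.2 CPM in KPPCN. Tgif1 was at 44.2, 80.6 and 66.2 CPM against 47.5 and 62.5 CPM, and Tgfbi at 83.6, 82.7 and 23.2 CPM against 29.6 and 26.8 CPM. In cluster 11, whose cells were shallow, Pmepa1 was at 327, 390 and 144 CPM in KPPC and 390 and 512 CPM in KPPCN. Restricted to clusters 10 and 11, which each held at least 100 KPPC cells, the Pmepa1 difference was 0.43 ± 0.32 (limma, adjusted p = 0.791), with a 95% interval of −0.33 to 1.19. In this fit 309 of the 313 KPPCN 2 cells were in the shallow cluster 11. C3 had 250 cells in cluster 10 and 214 in cluster 11, and D3, H2 and KPPCN 1 lay mostly in cluster 10. The fit thus compares unlike mixtures of the 2 clusters.

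**Figure D2:**
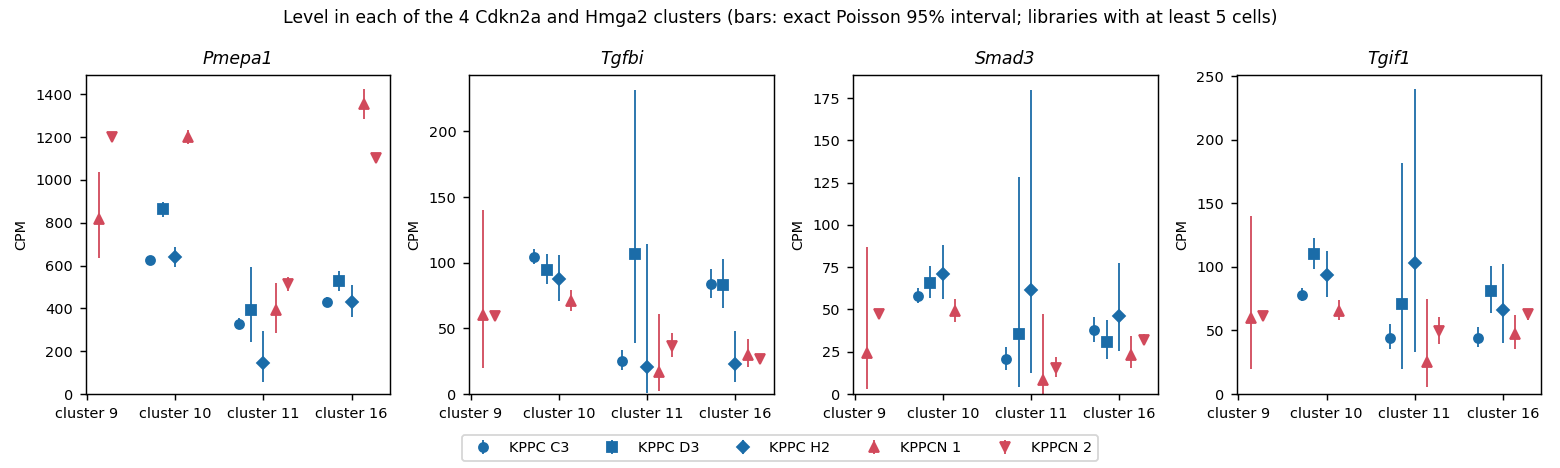
Levels of Pmepa1, Tgfbi, Smad3 and Tgif1 in CPM within clusters 9, 10, 11 and 16, with 1 point per library with at least 5 cells and bars for the exact Poisson 95% interval of its count. Pmepa1 in cluster 16 was at 428 to 528 CPM in KPPC, against 1101 and 1354 CPM in KPPCN.

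In epithelial-like cells none of the 8 genes passed, and limma called 0% of 12195 genes (lowest adjusted p 0.373, 1360 genes at an unadjusted p under 0.05). Pmepa1 was at 831, 804 and 743 CPM in KPPC and 556 and 774 CPM in KPPCN, a difference of −0.27 ± 0.19 (adjusted p = 0.621). Its KPPCN 2 value lay among the KPPC values. Skil was at 129, 162 and 126 CPM against 74.8 and 127 CPM (−0.47 ± 0.24, adjusted p = 0.507). Tgif1 was at 133, 205 and 147 CPM against 68.6 and 151 CPM (−0.56 ± 0.33, adjusted p = 0.561), the largest of the 8 differences here. In Pmepa1, Skil and Tgif1 alike the low value was that of KPPCN 1, whose 96 epithelial-like cells also carried the highest sum of the 14 leukocyte markers, 763 CPM against 21.9 to 57.4 CPM in the other libraries. Their 5 erythroid markers summed to 5334 CPM, against 0 to 158 CPM elsewhere, and in KPPCN 2 the 6 acinar markers summed to 2737 CPM against 65.4 to 180 CPM in the other libraries. The part of these markers in the low values was not tested. Smad7 was at 111, 130 and 116 CPM in KPPC and 131 and 134 CPM in KPPCN (0.15 ± 0.14, adjusted p = 0.712). It was the only 1 of the 8 to lie wholly above, beside 15.7% of all genes, and 0 lay wholly below, beside 17.3%. Differences of Smad2, Smad3 and Smad4 were 0.07 ± 0.17, −0.08 ± 0.23 and 0.07 ± 0.15, and that of Tgfbi, at 1 to 3 UMIs in KPPCN, was −0.15 ± 0.31. The median over the 8 was −0.12, against 0.01 over all genes.

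Fibroblast-like cells likewise gave no called member, with limma calling 0% of 11749 genes (lowest adjusted p 0.0812, 833 genes at an unadjusted p under 0.05). Smad2 was at 16.5, 14.8 and 15.8 CPM in KPPC and 19.1 and 17 CPM in KPPCN (0.15 ± 0.14, adjusted p = 0.775). Smad3 was at 30.6, 32.2 and 32.5 CPM in KPPC and 26.8 and 23.8 CPM in KPPCN (−0.27 ± 0.14, adjusted p = 0.690). Smad2 thus lay wholly above, beside 13.6% of all genes, and Smad3 wholly below, beside 11.1%. Pmepa1 was at 516, 507 and 623 CPM against 560 and 721 CPM (0.22 ± 0.20, adjusted p = 0.775). Smad7 was at 176, 145 and 178 CPM in KPPC, 89.8 CPM in KPPCN 1 and 181 CPM in KPPCN 2. Tgif1 was at 22.6, 25.5 and 26.2 CPM in KPPC, 11.7 CPM in KPPCN 1 and 30.0 CPM in KPPCN 2. For both genes KPPCN 1 was below and KPPCN 2 above every KPPC library. Without KPPCN 1 the differences were 0.12 for Smad7 and 0.25 for Tgif1, and without KPPCN 2 they were −0.87 and −0.83. KPPCN 1 held 1317 of its 1531 fibroblast-like cells in cluster 2, whereas the other 4 libraries held theirs mostly in cluster 0. The 14 leukocyte markers summed to 1366 CPM in these cells of KPPCN 1, against 368 to 995 CPM in the other libraries, and their part was not tested. Tgfbi was at 22.4, 44.0 and 7.77 CPM against 15.8 and 15.8 CPM (−0.32 ± 0.49). Differences of Smad4 and Skil were −0.07 ± 0.17 and −0.05 ± 0.21. The median over the 8 was −0.17, against 0.03 over all genes.

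**Figure D3:**
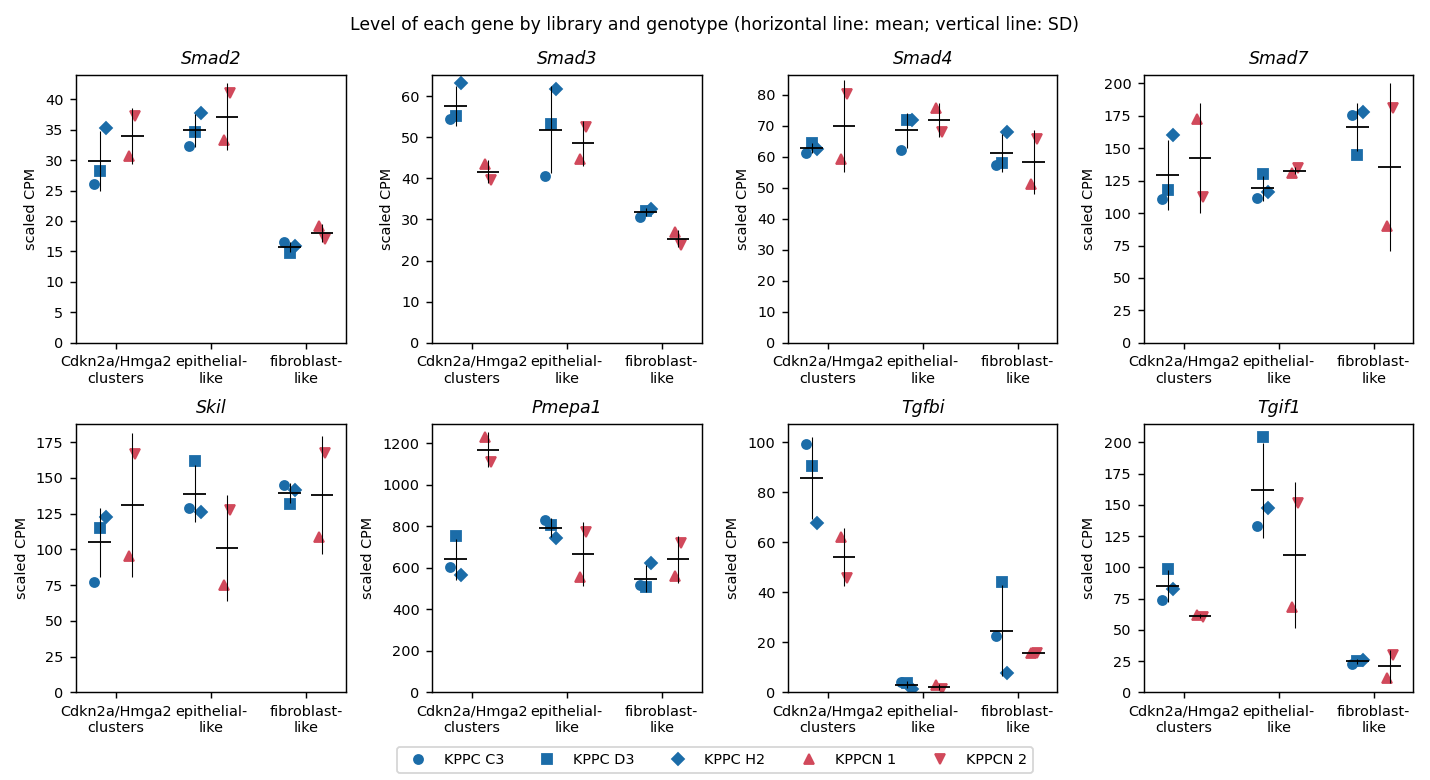
Scaled CPM of the 8 genes per library in epithelial-like cells, fibroblast-like cells and the Cdkn2a/Hmga2 clusters, KPPC beside KPPCN; points are libraries, and lines give the mean and SD. Pmepa1 in the Cdkn2a/Hmga2 clusters was at 565 to 753 CPM in KPPC, against 1111 and 1229 CPM in KPPCN, while in epithelial-like cells the genotypes overlapped.

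Clusters 5 and 8, unnamed and tested by number, gave further values for the same genes. In cluster 5, Pmepa1 was at 1370, 1260 and 1243 CPM in KPPC and 1824 and 1510 CPM in KPPCN (0.37 ± 0.20, adjusted p = 0.644). Smad3 was at 21.0, 21.6 and 24.2 CPM in KPPC and 24.4 and 42.0 CPM in KPPCN (0.39 ± 0.22, adjusted p = 0.664), and the difference was 0.79 without KPPCN 1 and 0.11 without KPPCN 2. Tgfbi was at 179, 60.3 and 63.9 CPM in KPPC and 38.1 and 34.0 CPM in KPPCN (−1.23 ± 0.57, adjusted p = 0.582). C3 held the high Tgfbi value, and without C3 the difference was −0.69 ± 0.23 (adjusted p = 0.521). Hence 2 of the 8 lay wholly above, beside 13.6% of 10745 genes, and 1 wholly below, beside 15.3%, while 0% were called (lowest adjusted p 0.113 in limma, 918 genes at an unadjusted p under 0.05). In cluster 8, Pmepa1 was at 615, 542 and 460 CPM in KPPC and 823 and 671 CPM in KPPCN (0.47 ± 0.21, adjusted p = 0.434). Smad3 was at 42.4, 31.1 and 47.0 CPM in KPPC and 14.1 and 28.6 CPM in KPPCN (−0.70 ± 0.27, adjusted p = 0.384). These were the 1 member wholly above and the 1 wholly below, each beside 14.6% of 10645 genes. Limma called 3 genes there, 0.0282%, none of them a member. The 14 leukocyte markers in cluster 8 summed to 1784 CPM in KPPCN 1, against 77.4 to 132 CPM in the other libraries, and their part was not tested.

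**Figure D4:**
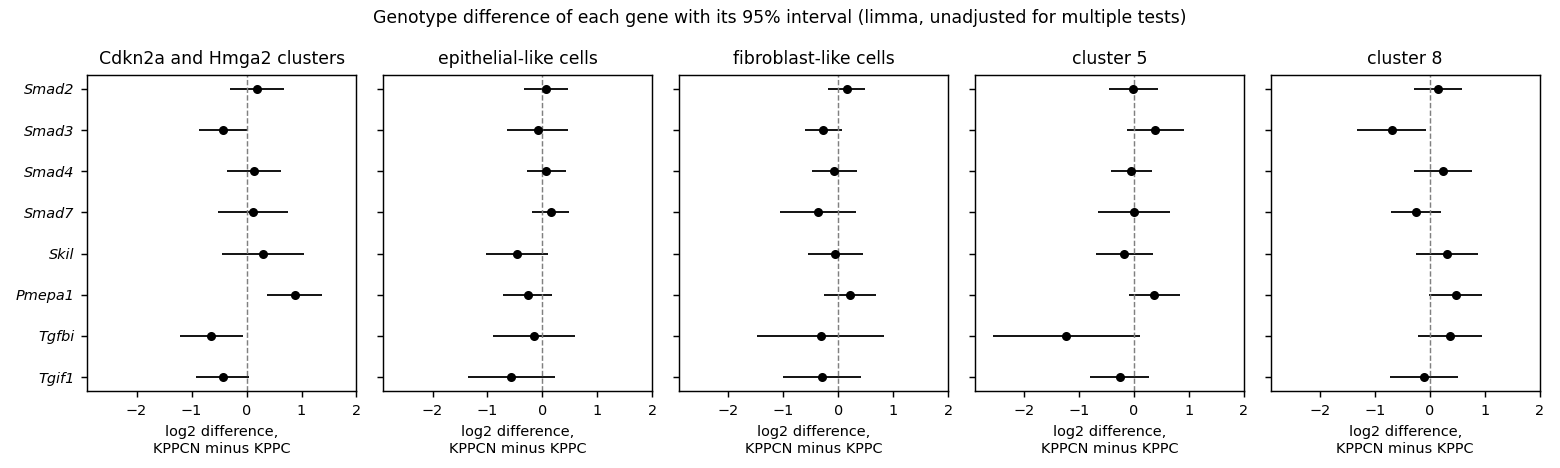
Log2 difference in CPM + 5, KPPCN minus KPPC, of the 8 genes in 5 populations; points are limma estimates and bars their 95% intervals. The Pmepa1 estimate was 0.87 in the Cdkn2a/Hmga2 clusters and −0.27 in epithelial-like cells, and no point passed the threshold after adjustment over all genes.

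Mesothelial-like cells reached 20 cells in 1 KPPCN library only, KPPCN 1 with 26 cells, so that its spread is assumed to equal that of KPPC. Smad7 was at 168, 193 and 144 CPM in KPPC and 33.4 CPM in KPPCN 1, from 9 UMIs. Skil was at 123, 146 and 124 CPM in KPPC and 33.4 CPM in KPPCN 1. In 3 other clusterings, which gave both KPPCN libraries 20 cells, the difference was −0.85 to −0.62 for Smad7, −0.42 to −0.14 for Skil and 0.06 to 0.56 for Pmepa1. These did not hold the same cells. At resolution 0.5 the class had 554, 1222 and 534 cells in C3, D3 and H2, against 163, 148 and 147 here. KPPCN 1 and 2 then had 146 and 73. Limma called 0% of 10976 genes (lowest adjusted p 0.0847, 203 genes at an unadjusted p under 0.05). Over all cells of a library, Pmepa1 was at 643, 609 and 596 CPM in KPPC and 668 and 1025 CPM in KPPCN (adjusted p = 0.404), where limma called 1 of 12556 genes, 0.00796%, not a member. Sums over all cells also carry the different mixtures of cells. Without KPPCN 1 the Pmepa1 difference was 0.73 and the Smad2 difference 0.50. That fit left 1 KPPCN library, of whose cells 72.5% lay in the Cdkn2a/Hmga2 clusters, so no call is read from it.

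Whether the genotype difference itself differed between populations was tested on within-library differences. Pmepa1 in the Cdkn2a/Hmga2 clusters minus epithelial-like cells was −0.46, −0.09 and −0.39 log2 units in C3, D3 and H2 and 1.14 and 0.52 in KPPCN 1 and 2. In KPPC the gene was thus lower, and in KPPCN higher, in the Cdkn2a/Hmga2 clusters than in the epithelial-like cells of the same tumour. The difference between genotypes was 1.14 ± 0.23, with an adjusted p of 0.504 in limma, so it did not pass. Of the 8 genes, 2 (Pmepa1 and Skil) were below 0 in every KPPC and above 0 in every KPPCN library, beside 2.3% of all genes. Smad3 alone had the opposite signs, beside 1.69%. The sign of Skil in H2 rests on the trimmed-mean scaling and turns without it. Limma called 0% of 11332 genes in this contrast. It also called 0% of 11045 genes for the Cdkn2a/Hmga2 clusters minus fibroblast-like cells and 0% of 11439 genes for epithelial-like minus fibroblast-like cells.

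Other genes of the pathway were read from 7 lists, of which 1 holds Pmepa1, Tgif1, Skil and Smad7 as co-repressors. None of their genes passed in the Cdkn2a/Hmga2 clusters, epithelial-like or fibroblast-like cells, or clusters 5 and 8. In the Cdkn2a/Hmga2 clusters, 12 of 14 ligand and activator genes had higher estimates in KPPCN, with a median of 0.31 against 0.03 over all genes, and 3 lay wholly above, beside the 12.4% of all genes. Inhba, which encodes the subunit of activin A, was at 258, 323 and 335 CPM in KPPC and 493 and 532 CPM in KPPCN (0.75 ± 0.20, adjusted p = 0.718). Receptors had higher estimates in 9 of 11 (median 0.16). Of the 11, 1 lay wholly above, beside 12.4% of all genes, and 1 wholly below, beside 9.36%. The 1 above was Tgfbr1, by a narrow margin, at 17, 22.1 and 21.1 CPM in KPPC and 22.4 and 22.8 CPM in KPPCN (0.16 ± 0.20, adjusted p = 0.890). Estimates were also higher for 19 of 29 other SMAD2/3 response genes (median 0.23). Of those response genes, 9 lay wholly above, beside 12.4% of all genes, and 2 wholly below, beside 9.36%. Tagln was at 19.7, 4.71 and 11.2 CPM in KPPC and 27.2 and 71.4 CPM in KPPCN (1.64 ± 0.50, adjusted p = 0.718). Acta2, smooth muscle actin, was at 23.7, 18.8 and 11.8 CPM in KPPC and 32.4 and 86.3 CPM in KPPCN. Inhba, Tagln and Acta2 were named for large differences without overlap, so no support is read from their sharing the direction of Pmepa1. None of them passed. Estimates were lower for 10 of the 29 response genes and, among the members, for Smad3, Tgfbi and Tgif1.

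In epithelial-like cells, 16 of 30 other SMAD2/3 response genes had higher and 14 lower estimates, and 6 lay wholly below, beside 17.3% of all genes. Among these was Ctgf, a secreted matricellular protein gene, at 104, 76.9 and 76.8 CPM in KPPC and 39.5 and 52.4 CPM in KPPCN (−0.84 ± 0.23, adjusted p = 0.413). Klf10, an early TGFβ-inducible transcription factor, was at 59.7, 57.9 and 58.5 CPM in KPPC and 30.1 and 51.0 CPM in KPPCN. In fibroblast-like cells 24 of 29 response genes had lower estimates, with a median of −0.15, although 1 lay wholly below, beside 11.1% of all genes. This was Klf10, at 29.9, 24.4 and 24.5 CPM in KPPC and 9.73 and 20.4 CPM in KPPCN (−0.71 ± 0.25, adjusted p = 0.690), whereas Ctgf was at 47.8, 45.5 and 45.3 CPM against 57.1 and 66.7 CPM. Id3, a target of the BMP branch of the SMADs, was at 527, 612 and 517 CPM in KPPC and 268 and 311 CPM in KPPCN (−0.92 ± 0.18, adjusted p = 0.436). In cluster 8, 22 of 28 response genes had higher estimates (median 0.33). Of the 28, 4 lay wholly above and 3 wholly below, each direction beside 14.6% of all genes. The cluster 8 genes named next had the largest differences without overlap in their lists. Col1a1, a fibrillar collagen gene, was at 3115, 3474 and 2796 CPM in KPPC and 5135 and 9487 CPM in KPPCN (1.16 ± 0.28, adjusted p = 0.177). Inhba was at 357, 673 and 417 CPM in KPPC and 1214 and 790 CPM in KPPCN (adjusted p = 0.243). Tgfb1 there was at 97.8, 96.4 and 126 CPM in KPPC and 272 and 188 CPM in KPPCN (1.06 ± 0.22, adjusted p = 0.141). Id2, another BMP target, was at 30.4, 26.5 and 23.3 CPM in KPPC and 57.1 and 54.8 CPM in KPPCN (0.94 ± 0.17, adjusted p = 0.109). In cluster 5 the response genes were split, 13 higher and 15 lower. Cdkn2b, a cell cycle inhibitor gene, was at 111, 182 and 137 CPM there in KPPC and 67.1 and 72.0 CPM in KPPCN (−0.97 ± 0.26, adjusted p = 0.503).

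Likeness between genes was measured as Pearson's r of log2(CPM + 5) over 11 classes, each the mean of its libraries, among 9394 genes. The classes share libraries and differ in depth, so r is a description. Among the members, Smad4 was most like Smad7 (r = 0.88) and Pmepa1 (r = 0.83), and Smad2 was least like Tgfbi (r = −0.38). Smad2 and Smad3, the receptor SMADs, had r = 0.72. Beyond the members, the most alike gene was Gpatch4 for Smad2 (0.97), Rnf181 for Smad3 (0.98), Fam126b for Smad4 (0.98) and Chd3 for Smad7 (0.95). It was Gabbr1 for Skil (0.94), Tmem70 for Pmepa1 (0.97), Med22 for Tgfbi (0.89) and E030030I06Rik for Tgif1 (0.93). Tgfbi thus had the lowest best match of the 8. Each best match is the highest r among 9394 genes over only 11 classes. Picking the highest yields large values by itself, so no link between genes is read from them.

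Smad2, Smad4 and Smad7 lie on chromosome 18 of GRCm38, at 76241580 to 76310963 (plus strand), 73639009 to 73703780 (minus) and 75367529 to 75395935 (plus). Smad4 overlaps a processed pseudogene, AC132418.2, annotated on the opposite strand. How the counting treated this overlap is not given in the sources used here.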

How the data were processed

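Tumour cells of 3 KPPC and 2 KPPCN libraries were profiled with the 10x 3′ V3 chemistry. GRCm38, Seurat 3.0.2, R 3.5.1 and Cell Ranger 2.1.0 appear in the submitters' processing notes. The values deposited by the authors are the natural log of 1 plus UMIs per 10000 in a cell, and UMIs were recovered from their steps. The KPPC table lists 12579 genes and the KPPCN table lists 31053. Tests used the shared 12579, which held 99.3% of KPPCN UMIs. The KPPC columns carry the codes C3, D3 and H2 and no sample number.

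Of 17771 barcodes, 801 were left out for having fewer than 500 genes or over 20% of UMIs from mitochondrial genes. A doublet caller marked 59 cells, 0.348% of those kept, so it did not work and doublets remain. Cells were clustered (leidenalg 0.10.2, 2000 variable genes, 30 components, 20 neighbours, resolution 1), and clusters were named from marker lists. Levels are CPM of UMIs summed per library and class. Genotypes were compared with limma 3.58.1 in R 4.3.3 on log2(CPM + 5) with trimmed-mean scaling and precision weights, over libraries with at least 20 cells, after a filter on low counts that all 8 genes passed in every population tested. Code was tested on simulated data. The named genes were all 8 members. From each pathway list and population, up to 2 genes were eligible: those with the largest difference among genes of at least 20 CPM without overlap. The text gives 1 or 2 of these for the lists it describes, and the first of the 3 most alike genes per member.

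The members and lists were chosen with earlier results of these data known. Clustering was run 2 times and 2 naming rules and 3 definitions of a leading gene were compared. The definition taken, fold over the median cluster, selects the Cdkn2a/Hmga2 clusters known from earlier results. Separation of 14 insulin-expressing cells and the tests of clusters 5 and 8 were also chosen after seeing the data. None of these choices was made on the genotype differences of the members. Alternatives changed the pseudocount, scaling, weights, filters, depth per cell, clustering and libraries. Part of the genotype shared by both groups is not reported here.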

Additional observations from a re-analysis of the deposited data

Results flagged for a closer look

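In 3 genes the within-library difference between the Cdkn2a/Hmga2 clusters and epithelial-like cells had opposite signs in all KPPC and all KPPCN libraries, beside 2.3% and 1.69% of all genes for the 2 directions. For Pmepa1 the genotypes differed by 1.14 ± 0.23 on the log2 scale (limma, adjusted p = 0.504). Skil was at −0.70, −0.48 and −0.04 in C3, D3 and H2 and at 0.33 and 0.38 in KPPCN 1 and 2, which gave 0.77 ± 0.24 (adjusted p = 0.603). Smad3 was at 0.38, 0.05 and 0.03 in KPPC and at −0.03 and −0.36 in KPPCN, which gave −0.36 ± 0.23 (adjusted p = 0.716). Among these values Skil in H2 and Smad3 in D3, H2 and KPPCN 1 lay close to 0. Each population had its own scaling factors, for H2 1.05 in the Cdkn2a/Hmga2 clusters and 0.966 in epithelial-like cells. Unscaled, H2 had 198 Skil UMIs of 1534197 in the clusters and 1996 of 16378028 in epithelial-like cells. The unscaled level was thus higher in the clusters, against the sign above. Unscaled totals were not fitted for this contrast. None of the 3 passed the test.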

How the results depend on the processing

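The 3 against 2 libraries, the low depth of KPPCN 1 and the 38 and 96 epithelial-like cells of KPPCN limit the precision of all differences. No paired analysis was possible because the KPPC libraries carry codes that match no replicate number. Pmepa1 in the Cdkn2a/Hmga2 clusters was higher in KPPCN under all 17 alternatives (0.43 to 1.00, adjusted p 0.146 to 0.999).

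Thinning cells to 1000 UMIs, limma called 8 genes in epithelial-like cells, 5 in fibroblast-like cells, 3 in mesothelial-like cells, 15 in the Cdkn2a/Hmga2 clusters, 118 over all cells, 13 in cluster 8, and 6 in the contrast of the Cdkn2a/Hmga2 clusters minus fibroblast-like cells. With means over cells of scaled values it called 2 in epithelial-like cells, 1 in the Cdkn2a/Hmga2 clusters, 100 over all cells and 26 in cluster 8. With a pseudocount of 1 CPM it called 4 over all cells and 7 in cluster 8. Unscaled totals gave 3 over all cells. Without precision weights 5 were called in cluster 8 and 3519 in mesothelial-like cells, where clustering at resolution 2 gave 1. The mesothelial-like calls without weights were among 10976 genes tested and rest on 1 KPPCN library of 26 cells. They included Smad2, Smad3, Smad7, Skil, Tgfbi and Tgif1, all lower in that library, where 2 to 10 UMIs were counted. They are not read as results about these genes. Leaving out 1 library gave 0 to 3 calls in epithelial-like cells, 0 to 24 in fibroblast-like cells (24 without C3), 1 to 3 in mesothelial-like cells, 0 to 116 in the Cdkn2a/Hmga2 clusters, 0 to 3331 over all cells (165 without KPPCN 2), 0 to 21 in cluster 5 (21 without C3) and 0 to 49 in cluster 8 (49 without KPPCN 1, 36 without H2, 9 without D3). It gave 0 to 6 for the Cdkn2a/Hmga2 clusters minus epithelial-like cells and 0 to 4 for epithelial-like minus fibroblast-like cells.

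Signs turned as follows, in differences that had not passed, first for the 3 populations with all members described. In epithelial-like cells, thinning gave −0.14 for Smad2, 0.17 for Smad3, −0.75 for Smad4 and −0.29 for Smad7. Means over cells gave 0.15 for Smad3 and −0.076 for Smad7, and resolution 2 gave 0.51 for Tgfbi. In fibroblast-like cells, means over cells gave −0.056 for Smad2 and 0.22 for Skil, unscaled totals 0.0099 for Smad4 and 0.034 for Skil, thinning 0.15 for Skil, and cluster 0 alone 0.064 for Skil and 0.16 for Tgif1. Over clusters 10 and 11 alone, where KPPCN 2 cells were nearly all of cluster 11, values were −0.12 for Smad4, −0.41 for Smad7 and −0.26 for Skil. Leaving out 1 library gave in epithelial-like cells −0.057 to 0.20 for Smad2, −0.23 to 0.043 for Smad3, −0.027 to 0.14 for Smad4 and −0.32 to 0.027 for Tgfbi. In fibroblast-like cells it gave −0.25 to 0.10 for Smad4, −0.87 to 0.12 for Smad7, −0.37 to 0.25 for Skil, −0.78 to 0.089 for Tgfbi and −0.83 to 0.25 for Tgif1. In the Cdkn2a/Hmga2 clusters it gave −0.073 to 0.33 for Smad4, −0.17 to 0.43 for Smad7 and −0.093 to 0.68 for Skil, and over all cells −0.063 to 0.50 for Smad2. Further ranges over all settings that crossed 0 were, over all cells, −0.14 to 0.36 for Smad4, −0.36 to 0.04 for Smad7, −0.21 to 0.39 for Skil and −0.53 to 0.08 for Tgfbi. In mesothelial-like cells they were −1.67 to 0.01 for Smad3, −0.36 to 0.67 for Smad4, −1.84 to 0.56 for Pmepa1 and −1.30 to 0.75 for Tgfbi. In cluster 5 they were −0.13 to 0.17 for Smad2, −0.11 to 0.02 for Smad4, −0.50 to 0.31 for Smad7 and −0.58 to 0.014 for Skil. In cluster 8 they were −0.05 to 0.28 for Smad2, −0.17 to 0.54 for Smad4, −0.38 to 0.02 for Smad7, −0.10 to 0.69 for Skil, −0.21 to 0.77 for Tgfbi and −0.70 to 0.19 for Tgif1. The cause of these changes was not tested.

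Without SMAD pathway genes in the clustering, Smad2 in fibroblast-like cells averaged 19.3 CPM. KPPCN 1 then had 146 fibroblast-like cells instead of 1531. A cluster with 1364 of its cells had a fibroblast marker score of 1.499, under the 1.5 required, and stayed unnamed. Unthinned, cells with a UMI of Smad2, Smad3, Smad4, Smad7, Skil, Pmepa1, Tgfbi and Tgif1 made up 42.6%, 52.1%, 61.8%, 68.9%, 66.3%, 88.8%, 38.2% and 57.8% in the Cdkn2a/Hmga2 clusters. In the same order they made up 41.6%, 46.7%, 58.2%, 61.5%, 65.5%, 90.1%, 4.78% and 71.0% of epithelial-like cells, and 20.2%, 33.3%, 52.8%, 63.2%, 68.2%, 90.3%, 13.0% and 25.8% of fibroblast-like cells. These shares follow depth, which thinning holds fixed.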
